A study of Mus musculus with 30 samples.

Results

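Heme synthesis and breakdown was followed in mouse liver through 9 genes, of 18193 genes that had a probe set of their own on the array. They are Alas1, Alad, Uros, Urod, Cpox, Ppox and Fech, which encode enzymes of heme synthesis, Hmox1, which encodes the inducible heme oxygenase that opens the heme ring, and Slc48a1, which encodes a transporter that moves heme out of lysosomes. The genes were named by their place in the pathway, and each was read from whichever of its single-gene probe sets was brightest on average. All 9 passed the filter on dim genes and are among the 12795 genes tested, and each lay above the array median on 30 of 30 arrays. Values are log2 levels, so a difference of 1 is a doubling of signal. They are compared between arrays for one gene at a time, not between genes.

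The series holds 30 arrays from the livers of adult male mice on a C57BL/6J background, in 10 groups of 3. Mice received corn oil, 1,4-dichlorobenzene (DCB, 600 mg/kg) or cyproterone acetate (CPA, 160 mg/kg) by daily oral gavage and were killed the day after treatment ended. Each treatment was given to wild type mice (WT), to mice humanised for the xenobiotic receptors CAR and PXR (hCAR/hPXR) and to mice deleted for both (CARko/PXRko), and a group deleted for PXR alone (PXRko) received only corn oil. The corn oil and DCB groups are labelled 3 days. CPA is labelled 6 days in WT and hCAR/hPXR mice but 3 days in CARko/PXRko mice. The protocol gives 3 days for CPA, so under CPA genotype and labelled duration cannot be told apart when CARko/PXRko mice are set against the others. In WT and hCAR/hPXR mice the CPA arrays labelled 6 days are set against corn oil arrays labelled 3 days, so treatment and labelled duration cannot be told apart there either. The design states 5 mice per group, and the labels do not say that each array is a separate mouse, so p-values reflect only how these samples spread, which may be technical.

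The liver makes heme mainly for cytochrome P450 enzymes. Alas1 catalyses the first and rate-limiting step in mitochondria, its transcription is induced by drugs that activate CAR or PXR, and heme feeds back to hold it down; the next steps run in the cytosol and the last ones, ending with iron insertion by Fech, in mitochondria. Heme oxygenase breaks heme into biliverdin, carbon monoxide and iron, and biliverdin reductase turns biliverdin into bilirubin.

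Probes for the mouse receptor genes followed the labels. Nr1i3, which encodes CAR, lay at 9.32 to 10.09 in corn oil WT and 9.58 to 10.09 in corn oil PXRko livers, against 6.05 to 6.86 over all hCAR/hPXR and CARko/PXRko arrays. Nr1i2, which encodes PXR, lay at 6.75 to 8.06 in WT livers and at 4.25 to 4.97 in the other 3 genotypes, under the array medians of 5.36 to 5.44. Hepatocyte markers had a summed level of 17.28 to 17.62 on all arrays, with 8 of 9 listed markers measured. Transcripts of skeletal muscle stood out on 4 arrays (corn oil CARko/PXRko replicate 2, corn oil PXRko replicate 3, DCB CARko/PXRko replicates 2 and 3), with summed levels of 11.76 to 17.03 against 9.18 to 9.61 elsewhere. On DCB CARko/PXRko replicate 3 the summed level of brown fat markers was 15.10 (at most 13.37 elsewhere) and that of adrenal cortex markers 13.42 (at most 8.26 elsewhere), and on replicate 2 of that group squamous epithelium markers summed to 12.18, the highest of the 30 arrays. Several CARko/PXRko values are given with and without these 4 arrays, and their part in the other results was not tested.

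Promoter sequence from RefSeq (GRCm38.p6) of 6 of the 9 genes was searched, in 9 windows of 250 bases before an annotated start. Fech, Hmox1 and Slc48a1 had no window among these 9, so the motif counts leave them out and they are named only. The window before the first Alad start is shown because Alad was lower in each CPA group. It lies on the minus strand of chromosome 4 at chr4:62520064-62520313, directly upstream of the gene (chr4:62505984-62520063), with the E-box CACGTG in capitals, 105 bases before the start.
Alad, first start: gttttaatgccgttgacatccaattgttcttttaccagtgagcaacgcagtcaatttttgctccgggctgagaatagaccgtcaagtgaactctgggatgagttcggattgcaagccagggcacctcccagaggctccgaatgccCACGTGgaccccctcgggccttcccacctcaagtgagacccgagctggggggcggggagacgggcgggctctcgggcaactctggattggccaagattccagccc

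The other E-box matches, and the single match in these windows to the palindromic NRF1 motif, in capitals in the Alas1 stretch, are shown as stretches of 30 bases to compare their surroundings. Capitals mark the motif in each stretch, and all 4 genes read from the minus strand. The Alas1 stretch (chr9:106247906-106247935) and the second Alad stretch (chr4:62519920-62519949) lie inside the annotated gene spans, before later starts. The Uros stretch (chr7:133709516-133709545) also lies inside the span of its gene (chr7:133686142-133710467), and the Urod stretch (chr4:116994445-116994474) lies just upstream of Urod (chr4:116989965-116994436).
Alas1, second start: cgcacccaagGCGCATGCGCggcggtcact
Alad, second start: ccgccccgccccCACGTGggcttgcgcttt
Uros, first start: CACGTGtgctttctcacctcgtccacgatt
Urod, the one start: cactggatcggtCACGTGgttctcaatatg

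Motifs were searched as exact letters on both strands. CACGTG was in 4 of the 9 windows, from 3 genes, and in 6.02% of the 32851 RefSeq promoter windows of the same length. The NRF1 motif was in 1 of 9 windows and 0.782% of all. The GC box GGGCGG was in 5 of 9 windows against 32.7% of all, and CCAAT in 4 of 9 against 33.8%. The antioxidant response element TGACNNNGC (10.2% of all), the GATA site AGATAA (9.99%) and the direct repeat of AGGTCA with 4 bases between (0.0152%) were not among the letters of these 9 windows. These are matches of letters only, and windows of one gene can overlap.

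DCB raised the heme transporter gene Slc48a1 in all 3 genotypes and the rate-limiting enzyme gene Alas1 in hCAR/hPXR mice. Under CPA Alad, the second enzyme of the pathway, was called lower in all 3 genotypes. Fech, the last enzyme, was called lower in hCAR/hPXR and CARko/PXRko mice and read -0.34 in WT mice without a call. The Alad call in WT mice was lost without any one of its 6 arrays, and averaging the Alad probe sets ended all 3 calls. The Fech calls held in only some of the other settings. Uros, Urod, Cpox, Ppox and Hmox1 passed the test in no comparison. Calls were made where limma's p, adjusted by Benjamini-Hochberg over the genes tested, was under 0.05. Under DCB, 1 of the 9 genes was called in WT mice, where 0.735% of all genes tested were called, 2 of 9 in hCAR/hPXR mice, where 7.64% were, and 1 of 9 in CARko/PXRko mice, where 0.117% were. Under CPA, 1 of 9 was called in WT mice against 1.12% of all genes, 2 of 9 in hCAR/hPXR mice against 4.42%, and 2 of 9 in CARko/PXRko mice against 5.49%. The median difference over the 9 genes was 0.25, 0.28 and 0.14 under DCB and -0.17, 0.11 and -0.05 under CPA (WT, hCAR/hPXR and CARko/PXRko), while the median over all genes lay between -0.02 and 0.01. The DCB and CPA effects in a genotype share the same corn oil arrays, so they are given side by side and not correlated.

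**Figure D1:**
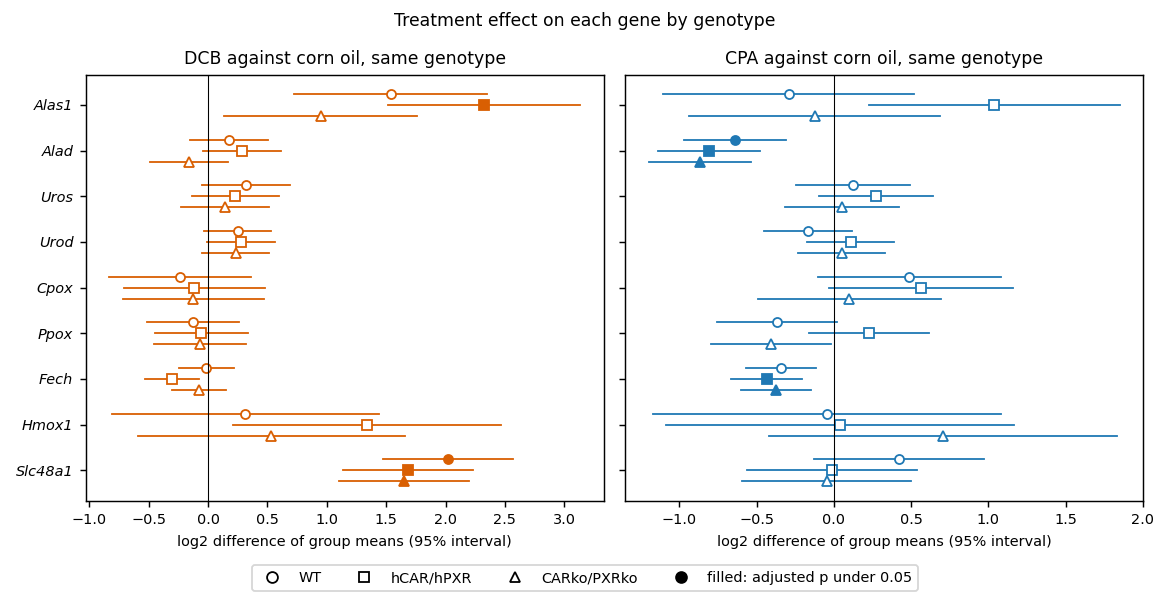
Difference in log2 level between treated and corn oil livers for each of the 9 genes, by genotype, with bars for 95% intervals of the fit. Slc48a1 lies between 1.65 and 2.02 under DCB in all 3 genotypes, Alas1 is highest in hCAR/hPXR mice at 2.32, and Alad lies between -0.64 and -0.87 under CPA.

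Alas1 is the gatekeeper of the pathway, and its level varied widely even without treatment. In corn oil WT livers it lay at 11.90, 11.77 and 12.11, in hCAR/hPXR livers at 10.93, 11.54 and 12.39, in CARko/PXRko livers at 13.27, 11.88 and 12.55, and in PXRko livers at 11.46, 12.68 and 12.42. The WT arrays were close together (SD 0.17, n = 3), and those of the other 3 genotypes spread over more than 1 log2 unit and overlapped them. After DCB the WT arrays read 13.57, 13.84 and 12.99, the hCAR/hPXR arrays 13.91, 13.94 and 13.97, and the CARko/PXRko arrays 13.81, 13.73 and 13.00. Every DCB array of WT and hCAR/hPXR mice lay above its controls, while in CARko/PXRko mice the highest control array, at 13.27, lay above the lowest DCB array.

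In hCAR/hPXR mice Alas1 rose by 2.32 ± 0.39 (SE, n = 3 against 3), a 5.00-fold increase (adjusted p = 0.00081). The difference in WT mice was 1.54 ± 0.39, or 2.90-fold, with a 95% interval of 0.73 to 2.35, and it missed the threshold (adjusted p = 0.0716). It passed when only the WT groups were fitted (adjusted p = 0.016) and with array weights (adjusted p = 0.00405). In CARko/PXRko mice the difference was 0.95 ± 0.39 (95% interval 0.14 to 1.76, adjusted p = 0.52), and it was 0.90 without the 4 arrays with muscle transcripts, where 1 DCB array is left and is taken to vary like the others (adjusted p = 0.963). The second Alas1 probe set gave 1.21, 1.89 and 0.75 in the same order of genotypes, and in hCAR/hPXR mice it was called too (adjusted p = 0.00207).

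The genotypes' responses of Alas1 to DCB could not be told apart after adjustment. The hCAR/hPXR response exceeded that of CARko/PXRko mice by 1.37 ± 0.55 (95% interval 0.23 to 2.52, adjusted p = 0.676) and that of WT mice by 0.78 ± 0.55 (-0.36 to 1.93). For CARko/PXRko against WT mice the difference of responses was -0.59 ± 0.55 (-1.74 to 0.56). By group mean Alas1 ran from 13.94 in DCB hCAR/hPXR livers through 13.51 (CARko/PXRko) and 13.46 (WT) to 12.66 in CPA hCAR/hPXR livers; the first of these did not overlap the second, and DCB WT did not overlap the next group, whereas all neighbours lower in the order overlapped.

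Alas1 had no called change under CPA. The CPA arrays read 12.34, 10.71 and 11.85 in WT livers, 12.37, 12.82 and 12.78 in hCAR/hPXR livers and 12.29, 12.41 and 12.62 in CARko/PXRko livers, each group overlapping its controls. The differences were -0.29, 1.04 and -0.12, each ± 0.39, with adjusted p = 0.924, 0.158 and 0.88. The last was -0.47 without the 4 arrays with muscle transcripts (adjusted p = 0.584). For hCAR/hPXR mice the 95% interval was 0.23 to 1.85. Its excess over the WT response was 1.33 ± 0.55 (95% interval 0.19 to 2.48, adjusted p = 1.00), with the same labelled duration in both.

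**Figure D2:**
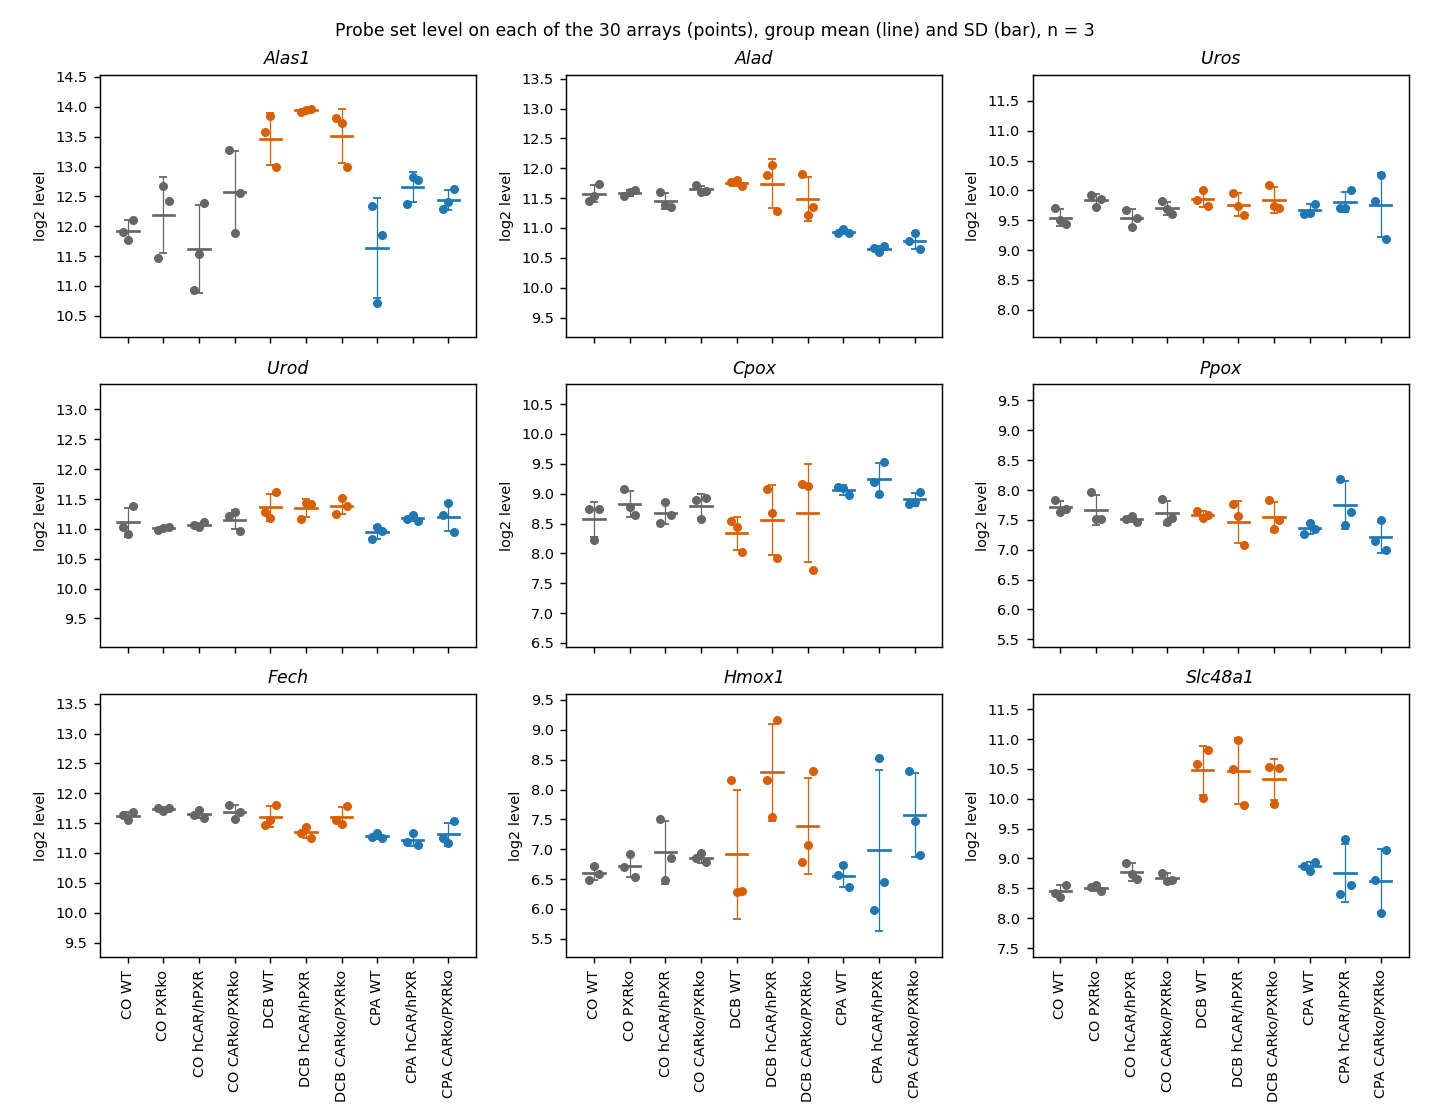
Log2 level of each of the 9 genes on every array, one panel per gene and one column per group, with a line at the group mean and a bar for the SD (n = 3); grey is corn oil (CO), orange DCB and blue CPA. The 9 DCB arrays of Slc48a1 lie between 9.89 and 10.99, above every other array, and the 9 CPA arrays of Alad between 10.59 and 10.98, below every other array.

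Slc48a1, also called HRG1, exports heme from lysosomes after red cell or heme protein breakdown. Its corn oil arrays read 8.43, 8.36 and 8.56 in WT, 8.93, 8.74 and 8.65 in hCAR/hPXR, 8.76, 8.62 and 8.64 in CARko/PXRko and 8.53, 8.56 and 8.45 in PXRko livers. After DCB they read 10.59, 10.01 and 10.82 in WT, 10.50, 10.99 and 9.89 in hCAR/hPXR and 10.53, 9.92 and 10.52 in CARko/PXRko livers. The lowest DCB array, at 9.89, lay above the highest of the other 21 arrays, a CPA hCAR/hPXR array at 9.32. With CPA the arrays read 8.88, 8.79 and 8.94 in WT, 8.41, 9.32 and 8.55 in hCAR/hPXR and 8.64, 8.09 and 9.15 in CARko/PXRko livers, overlapping the controls in the last 2 genotypes.

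Slc48a1 rose after DCB by 2.02 in WT, 1.69 in hCAR/hPXR mice and 1.65 in CARko/PXRko mice, each ± 0.27, or 4.07-fold, 3.22-fold and 3.14-fold. The adjusted p-values were 0.000202, 0.000442 and 0.00444. The response of CARko/PXRko mice differed from that of WT mice by -0.37 ± 0.37 (95% interval -1.15 to 0.40), so a response smaller or larger in the mice without CAR and PXR lies within the error. Without the 4 arrays with muscle transcripts the CARko/PXRko difference was 1.83, but the call was lost with 1 DCB array left (adjusted p = 0.154), and it was lost as well when only the groups compared were fitted (adjusted p = 0.145); in hCAR/hPXR mice that last fit gave adjusted p = 0.0514. The second probe set of Slc48a1 gave 2.02, 2.01 and 1.34, called in all 3 genotypes. Under CPA the differences were 0.42 ± 0.27 in WT mice (adjusted p = 0.684), -0.01 in hCAR/hPXR mice and -0.05 in CARko/PXRko mice.

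Kupffer cells, the liver macrophages that clear old red cells, also use this transporter, and their markers moved under treatment. All 11 listed macrophage markers were measured, and none lay under the array median on all arrays. Markers under it on every array of a single group were not counted. Their summed level was 13.21 to 13.50 in corn oil WT and 12.74 to 13.28 in DCB WT livers, 13.59 to 13.81 and 12.52 to 12.93 in hCAR/hPXR, and 13.03 to 13.30 and 12.59 to 12.94 in CARko/PXRko livers. Under DCB 6 of 11 fell in hCAR/hPXR mice, where 7.64% of all genes were called. In WT or CARko/PXRko mice 0 of 11 were called by limma, while at an unadjusted p under 0.05 the count was 2 and 3. At that threshold 1295 and 1036 of the 12795 genes counted in WT and CARko/PXRko mice. Under CPA the summed level was 12.42 to 12.61 in WT, 11.87 to 13.02 in hCAR/hPXR and 12.30 to 13.16 in CARko/PXRko livers. There 2, 8 and 1 of 11 markers fell, where 1.12%, 4.42% and 5.49% of all genes were called. The part of these cells in the DCB and CPA results of the 9 genes was not tested. In whole liver, fewer cells of a type and less RNA per cell cannot be told apart.

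Hmox1 is the stress-inducible, rate-limiting enzyme of heme breakdown. The corn oil arrays read 6.49, 6.72 and 6.59 in WT, 7.51, 6.48 and 6.85 in hCAR/hPXR, 6.85, 6.94 and 6.78 in CARko/PXRko and 6.70, 6.92 and 6.54 in PXRko livers. After DCB they read 8.16, 6.28 and 6.30 in WT, 8.16, 7.54 and 9.16 in hCAR/hPXR and 6.79, 7.07 and 8.31 in CARko/PXRko livers. Single arrays stood high within their groups: 1 of 3 in DCB WT and 1 of 3 in DCB CARko/PXRko livers, and all 3 DCB hCAR/hPXR arrays lay above their controls. Under CPA the arrays read 6.57, 6.74 and 6.36 in WT, 5.98, 8.52 and 6.45 in hCAR/hPXR and 8.31, 7.48 and 6.91 in CARko/PXRko livers.

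No Hmox1 difference passed the test. The DCB differences were 0.31, 1.34 and 0.53 in WT, hCAR/hPXR and CARko/PXRko mice, each ± 0.55 (adjusted p = 0.932, 0.137 and 0.877), and the CPA differences -0.04, 0.04 and 0.71. The hCAR/hPXR interval of 0.21 to 2.47 under DCB is wide, and arrays of one group differed by more than 1 log2 unit. In CARko/PXRko mice the differences were -0.02 under DCB, with 1 DCB array left, and 0.75 under CPA without the 4 arrays with muscle transcripts. Hmox1 has a single probe set here, so no second reading was made. Macrophages also use Hmox1. Their markers are given above, and the part of these cells in the Hmox1 values was not tested.

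Alad condenses aminolevulinate to porphobilinogen in the cytosol. In corn oil livers it lay at 11.46, 11.54 and 11.73 in WT, 11.61, 11.39 and 11.35 in hCAR/hPXR, 11.72, 11.61 and 11.62 in CARko/PXRko and 11.53, 11.61 and 11.63 in PXRko mice. With CPA it lay at 10.92, 10.98 and 10.92 in WT, 10.66, 10.59 and 10.69 in hCAR/hPXR and 10.79, 10.91 and 10.65 in CARko/PXRko mice. All 9 CPA arrays lay below all 12 corn oil arrays, and the CPA arrays were close together within each genotype (SD 0.03, 0.05 and 0.13). After DCB Alad lay at 11.77, 11.80 and 11.70 in WT, 11.88, 12.06 and 11.28 in hCAR/hPXR and 11.90, 11.21 and 11.35 in CARko/PXRko mice, overlapping the controls.

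Under CPA Alad fell by 0.64 in WT, 0.81 in hCAR/hPXR mice and 0.87 in CARko/PXRko mice, each ± 0.16. These are levels 1.56-fold, 1.75-fold and 1.82-fold lower, with adjusted p = 0.0478, 0.00327 and 0.0019. The WT call sat close to the threshold and was lost without any one of its 6 arrays, with differences of -0.70 to -0.56 and adjusted p from 0.108 to 0.205. The CARko/PXRko and hCAR/hPXR calls held without each single array, and the CARko/PXRko difference was -0.89 without the 4 arrays with muscle transcripts (adjusted p = 0.00319). A second, dimmer Alad probe set read -0.11, -0.29 and -0.62 under CPA and -0.35, -0.09 and 0.48 under DCB. It was called in none of these, and averaging both probe sets ended all 3 calls (adjusted p = 0.674, 0.215 and 0.0646).

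The size of the Alad fall did not differ detectably between genotypes. CARko/PXRko and WT mice differed by -0.22 ± 0.23 (95% interval -0.69 to 0.24) and hCAR/hPXR and WT mice by -0.17 ± 0.23 (-0.63 to 0.30). In the first of these the labelled CPA duration differs too, so genotype and duration cannot be told apart. Under DCB the Alad differences were 0.18, 0.29 and -0.16 with no call (adjusted p = 0.807, 0.292 and 0.868). The last turned to 0.23 without the 4 arrays with muscle transcripts, where 1 DCB array is left. Without DCB hCAR/hPXR replicate 3, whose Alad was the lowest of its group at 11.28, the hCAR/hPXR difference became 0.52 and was called (adjusted p = 0.0379).

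Fech inserts iron into protoporphyrin to make heme, the final step. It was the steadiest of the 9 genes, with a range of 0.67 over all 30 arrays. Corn oil arrays read 11.64, 11.56 and 11.68 in WT, 11.64, 11.72 and 11.59 in hCAR/hPXR, 11.80, 11.57 and 11.69 in CARko/PXRko and 11.75, 11.70 and 11.76 in PXRko livers. With CPA they read 11.26, 11.33 and 11.25 in WT, 11.19, 11.33 and 11.13 in hCAR/hPXR and 11.25, 11.16 and 11.53 in CARko/PXRko livers. Each CPA array lay below every control of its genotype.

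Under CPA Fech of hCAR/hPXR livers fell by 0.44 ± 0.11, to a level 1.35-fold lower (adjusted p = 0.0223). In livers without both receptors, CARko/PXRko, it fell by 0.38 ± 0.11, or 1.30-fold (adjusted p = 0.0472). The WT difference of -0.34 ± 0.11 was not called (adjusted p = 0.157), and the responses of hCAR/hPXR and WT mice differed by -0.09 ± 0.16 (95% interval -0.42 to 0.23). Both calls were fragile. In hCAR/hPXR mice the call was lost without corn oil replicate 1 or 2 or CPA replicate 1 or 3, with differences of -0.44, -0.40, -0.42 and -0.39 and adjusted p = 0.0735, 0.0992, 0.0880 and 0.0905. In CARko/PXRko mice it was lost without corn oil replicate 1, 2 or 3 or CPA replicate 1 or 2 (-0.32, -0.44, -0.37, -0.35 and -0.30, adjusted p = 0.184, 0.0510, 0.109, 0.138 and 0.191), without the 4 arrays with muscle transcripts (-0.44, adjusted p = 0.0501) and with a replicate block (adjusted p = 0.0510).

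DCB arrays of Fech read 11.47, 11.56 and 11.80 in WT, 11.34, 11.44 and 11.25 in hCAR/hPXR and 11.56, 11.49 and 11.78 in CARko/PXRko livers. The hCAR/hPXR arrays all lay below their controls, with a difference of -0.31 ± 0.11 that missed the threshold (adjusted p = 0.0901). Differences in WT and CARko/PXRko mice were -0.01 and -0.08, the latter -0.19 without the 4 arrays with muscle transcripts, where 1 DCB array is left. Fech has 3 more single-gene probe sets, of which 2 passed the filter. Under CPA one of them read -0.35, -0.38 and -0.26 and the other -0.10, -0.50 and -0.44 in the order WT, hCAR/hPXR and CARko/PXRko, with no call when all probe sets were tested together.

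**Figure D3:**
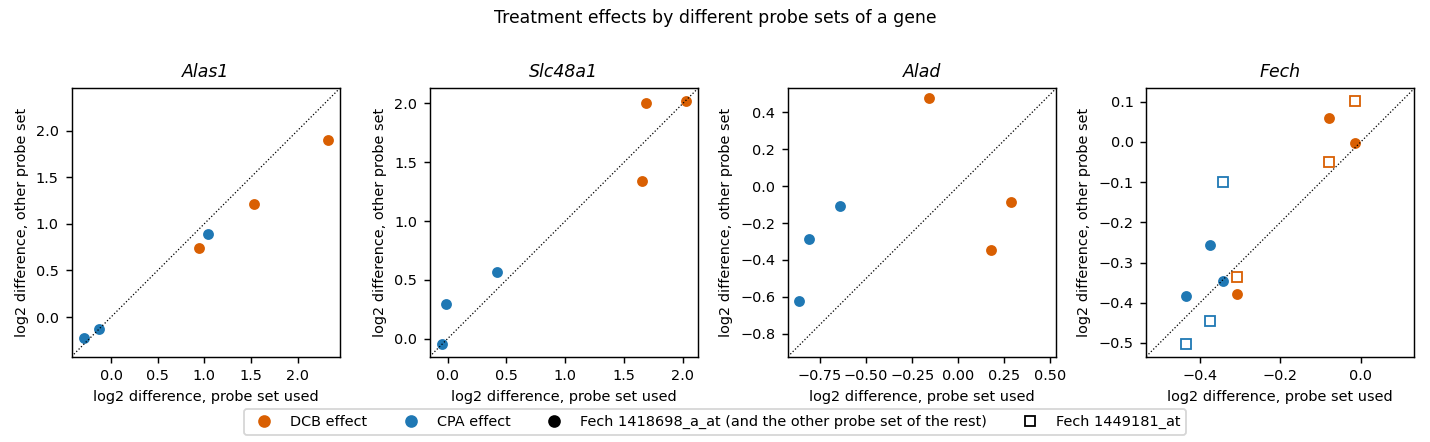
Treatment effects (log2) read from the probe set used, on the horizontal axis, and from other single-gene probe sets of the same gene that passed the filter, on the vertical axis, for Alas1, Alad, Fech and Slc48a1; the line marks equal values. For Slc48a1 the 3 DCB effects of 2.02, 1.69 and 1.65 read 2.02, 2.01 and 1.34 from the other probe set, and for Alad the CPA effects of -0.64, -0.81 and -0.87 read -0.11, -0.29 and -0.62.

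Red cell precursors also express Alad and Fech, and the sum of their markers read lower in treated WT and hCAR/hPXR livers. Of 11 erythroid markers 6 were measured, 2 of them under the array median on all arrays (Hba-a1 and Rhag), and the sum is led by Alas2, the red cell form of the first enzyme. Alas2 averaged 9.20 over all arrays, and the other measured markers averaged 3.55 to 5.22, below the array medians of 5.36 to 5.44. The sum therefore reads mostly Alas2. The summed level was 9.998 to 10.20 in corn oil WT, 9.42 to 9.69 in CPA WT and 9.35 to 9.44 in DCB WT livers. In hCAR/hPXR livers it was 9.75 to 9.85, 8.42 to 9.36 and 8.95 to 9.12, and in CARko/PXRko livers 9.28 to 10.33, 8.38 to 9.85 and 8.84 to 9.53, in the same order. Of the 3 erythroid markers tested, 0 were called in any of the 6 treatment effects (limma), and at an unadjusted p under 0.05 the count was 1, 1 and 0 under DCB and 1, 1 and 3 under CPA. The 3 under CPA in CARko/PXRko mice did not run one way: Alas2 read -0.95, Slc4a1 0.63 and Epb42 0.31. In each genotype the range of the erythroid sum under DCB overlapped that under CPA. The part of these cells in the CPA result was not tested.

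The middle enzymes moved little. Uros, which closes the ring into uroporphyrinogen, ranged from 9.19 to 10.25 over all arrays, and its largest treatment difference was 0.32 ± 0.18 (DCB in WT, adjusted p = 0.588). Urod, which trims the side chains, ranged from 10.83 to 11.61; its DCB differences of 0.25, 0.28 and 0.23, each ± 0.14, were not called (adjusted p = 0.585, 0.227 and 0.706). By group mean the 3 DCB groups headed the order of Urod at 11.34 to 11.38, overlapping the groups below them. A second probe set of each gene passed the filter and was not called in any treatment effect; its DCB values were -0.26, 0.08 and -0.12 for Uros and 0.01, 0.18 and 0.09 for Urod.

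Cpox and Ppox carry out the oxidations before Fech in mitochondria. Cpox ranged from 7.73 to 9.53, and the 3 CPA groups headed its order at 9.24, 9.06 and 8.90, overlapping the groups that followed. Its CPA differences were 0.49, 0.56 and 0.10, each ± 0.29, with no call (adjusted p = 0.64, 0.35 and 0.866), and the last was -0.02 without the 4 arrays with muscle transcripts. A second Cpox probe set read 0.33, 0.30 and 0.24 under CPA, also without a call. The lowest Cpox arrays were DCB CARko/PXRko replicate 3 at 7.73, among the 4 with muscle transcripts, and DCB hCAR/hPXR replicate 3 at 7.92. Ppox ranged from 6.99 to 8.19, with CPA differences of -0.37, 0.23 and -0.40, each ± 0.19 (adjusted p = 0.533, 0.636 and 0.218).

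Genotype on its own had no called effect on these genes. Of the 9 genes 0 were called between the corn oil groups of hCAR/hPXR and WT mice, where 0.0234% of all genes were called, CARko/PXRko and WT mice (0.0391%), PXRko and WT mice (0.0234%), or CARko/PXRko and PXRko mice (0.0156%). At an unadjusted p under 0.05 the count was 0 of 9 in each (limma). The widest gap was in Alas1, 0.64 ± 0.39 higher in CARko/PXRko than in WT livers (95% interval -0.17 to 1.45), and it was 0.98 without the 4 arrays with muscle transcripts.

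Differences of a treatment effect between genotypes were called for 0 of the 9 genes. Over all genes 0% were called for DCB in hCAR/hPXR against WT mice and 0% in CARko/PXRko against WT mice, and 0.00782% in hCAR/hPXR against CARko/PXRko mice. For CPA the shares were 0.0625%, 0.0703% and 0% in the same order. At an unadjusted p under 0.05 (limma) the members counted 0, 0 and 1 for DCB and 2, 0 and 2 for CPA, where all genes counted 398, 324 and 868 for DCB and 628, 967 and 839 for CPA. These were Alas1, and for CPA also Ppox, whose response in hCAR/hPXR mice exceeded that in WT mice by 0.59 ± 0.27 and that in CARko/PXRko mice by 0.63 ± 0.27 (adjusted p = 1.00 and 0.742). Under CPA the CARko/PXRko mice also differ from the others in labelled duration.

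The other enzymes of the pathway included one clear DCB response. Blvrb, a biliverdin reductase, rose from 11.36 ± 0.50 to 12.64 ± 0.24 (SD, n = 3) in WT mice and from 11.48 ± 0.19 to 13.18 ± 0.24 in hCAR/hPXR mice, differences of 1.28 and 1.69, each ± 0.23 (adjusted p = 0.00395 and 7.84e-05). In CARko/PXRko mice it read 12.56 ± 0.27 against 11.76 ± 0.45, all DCB arrays above the controls, without a call (adjusted p = 0.21). With 1 DCB array left, the difference was 0.62 without the 4 arrays with muscle transcripts. Hmox2, the constitutive heme oxygenase, rose by 0.55 ± 0.14 under CPA in CARko/PXRko mice (adjusted p = 0.0185), or 0.47 with no call without those arrays (adjusted p = 0.0865). Of the 4 tested, Blvra and Alas2 had no call, with Alas2 at -0.75, -0.93 and -0.68 under DCB and -0.57, -1.15 and -0.95 under CPA, each ± 0.35. Without the 4 arrays with muscle transcripts Alas2 was -1.28 under CPA in CARko/PXRko mice and called (adjusted p = 0.0442).

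Among the iron genes Fth1 rose under DCB in all 3 genotypes. Fth1, the ferritin heavy chain that stores iron, rose by 0.51, 0.49 and 0.38, each ± 0.08, in WT, hCAR/hPXR and CARko/PXRko mice (adjusted p = 0.000776, 0.000406 and 0.0417). Without the 4 arrays with muscle transcripts the last was 0.46, with 1 DCB array left. Tfrc, the transferrin receptor that takes iron up, rose by 2.28 ± 0.45 in WT and 3.03 ± 0.45 in hCAR/hPXR mice (adjusted p = 0.0102 and 0.000284). In CARko/PXRko mice Tfrc read 1.78 higher without a call (adjusted p = 0.131). Without those 4 arrays that difference was 3.17, from the 1 DCB array left. Of the 5 iron genes tested, 2 rose and 0 fell under DCB in WT mice, where 0.735% of all genes were called. In hCAR/hPXR mice 2 rose and 1 fell (Tfr2, by 0.67), where 7.64% were called, and in CARko/PXRko mice 1 rose, where 0.117% were. Under CPA 1 rose, the hormone gene Hamp in WT mice by 1.32 ± 0.31 (adjusted p = 0.0369), where 1.12% were called. Under CPA in CARko/PXRko mice Tfrc read 0.70 higher with no call (adjusted p = 0.388), and 1.30 higher with a call when those 4 arrays were left out (adjusted p = 0.0225).

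Some transport genes were called. Of 13 tested, 2 rose under DCB in hCAR/hPXR mice, where 7.64% of all genes were called. They were Slc25a38, which carries glycine into mitochondria for the first step, by 0.39 (adjusted p = 0.0409), and Tspo, a porphyrin-binding outer membrane protein, by 0.52 (adjusted p = 0.0468). Under CPA 1 of 13 rose in WT mice, where 1.12% of all genes were called. It was Clpx, which activates and turns over ALAS enzymes, by 0.98 ± 0.24 (adjusted p = 0.0394). The other 4 treatment effects had 0 of 13 called (limma), with 2 to 4 of 13 at an unadjusted p under 0.05. At that threshold, of the 12795 genes, 1295 and 1036 counted for DCB in WT and CARko/PXRko mice. For CPA 2044 and 2696 did in hCAR/hPXR and CARko/PXRko mice. Among the 5 scavenging genes Lrp1, the receptor for heme bound to hemopexin, fell by 1.19 in hCAR/hPXR mice under DCB (adjusted p = 0.0296). In CARko/PXRko mice under CPA Hp, haptoglobin, rose by 0.34 (adjusted p = 0.0306). Of all genes 7.64% and 5.49% were called in these comparisons. Bilirubin disposal genes had 0 of 3 called in each treatment effect (limma), with 1 of 3 at an unadjusted p under 0.05 for DCB in hCAR/hPXR mice and 0 in the others.

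Known regulators of Alas1 or Hmox1 had 0 of 10 called under DCB in each genotype and under CPA in WT mice (limma), with 1, 1, 1 and 2 of 10 at an unadjusted p under 0.05, where 1295, 2940, 1036 and 1313 of the 12795 genes were. Under CPA Nr1d1, a clock repressor that binds heme and represses Alas1, fell by 0.83 in hCAR/hPXR mice and 0.90 in CARko/PXRko mice, each ± 0.19 (adjusted p = 0.0121 and 0.00668). Foxo1, which can activate Alas1, rose by 0.87 and 0.83, each ± 0.23 (adjusted p = 0.0309 and 0.0396). Of all genes 4.42% and 5.49% were called under CPA in hCAR/hPXR and CARko/PXRko mice. In CARko/PXRko mice Nfe2l2, an activator of Hmox1, fell by 0.87 ± 0.21 (adjusted p = 0.016). Without the 4 arrays with muscle transcripts Foxo1 was 0.71 higher in CARko/PXRko mice and not called (adjusted p = 0.122). Alas1 and Hmox1 had no call in those groups. Bach1, the heme-sensing repressor of Hmox1, read -0.46 under CPA in WT mice without a call (adjusted p = 0.274).

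Heme proteins of drug metabolism were set beside Alas1. Cyp2b10, the cytochrome P450 most used as a CAR target, rose under DCB by 3.98 in WT and 6.20 in hCAR/hPXR mice and under CPA by 7.28, 6.13 and 3.51 in WT, hCAR/hPXR and CARko/PXRko mice, each ± 0.77 (adjusted p = 0.0083, 3.51e-05, 6.73e-06, 2.76e-05 and 0.00812). Under DCB in CARko/PXRko mice it read -0.56 (adjusted p = 0.918). Its corn oil WT arrays, at 5.29 to 6.27, lay near the array medians, 1 of 3 below its own. The corn oil CARko/PXRko arrays spread from 5.28 to 7.73 (SD 1.23, n = 3), also with 1 of 3 below its own median. The size of these differences is therefore imprecise. The DCB WT arrays spread from 7.40 to 12.08 (SD 2.34, n = 3). Of all genes tested 0.735%, 7.64% and 0.117% were called under DCB and 1.12%, 4.42% and 5.49% under CPA, in the order WT, hCAR/hPXR and CARko/PXRko. Of the 11 heme protein genes tested, 3, 3 and 0 rose under DCB and 4, 1 and 1 under CPA in the order of genotypes, with 1 falling, Cyp2c55 by 2.08 under CPA in CARko/PXRko mice. Cyp1a2 was called lower there too, at -1.45, when the 4 arrays with muscle transcripts were left out (adjusted p = 0.0048).

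The genes whose 10 group means ran most like those of Slc48a1 were Zwint (Pearson r = 0.986), Ugdh (0.982), Fbxo2 (0.979), Afp (0.979) and Cdk2ap1 (0.976). Afp, alpha-fetoprotein, had DCB group means of 9.12, 8.97 and 9.02 in WT, hCAR/hPXR and CARko/PXRko livers against 5.87 to 6.29 in the other 7 groups. Most like Alas1 were Tmem177 (0.978), Gtf2f1 (0.965), Plpp5 (0.962), Ost4 (0.960) and Lat2 (0.954). Most like Hmox1 were Prmt6 (0.977), Pwp1 (0.972), Trmt61a (0.971), Nip7 (0.964) and Nop56 (0.958). Group means share their arrays across genes, and these values are a description of 10 points. Among the 9 genes themselves Alas1 ran most like Urod (0.92) and Slc48a1 (0.87), and Alad like Fech (0.76).

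**Figure D4:**
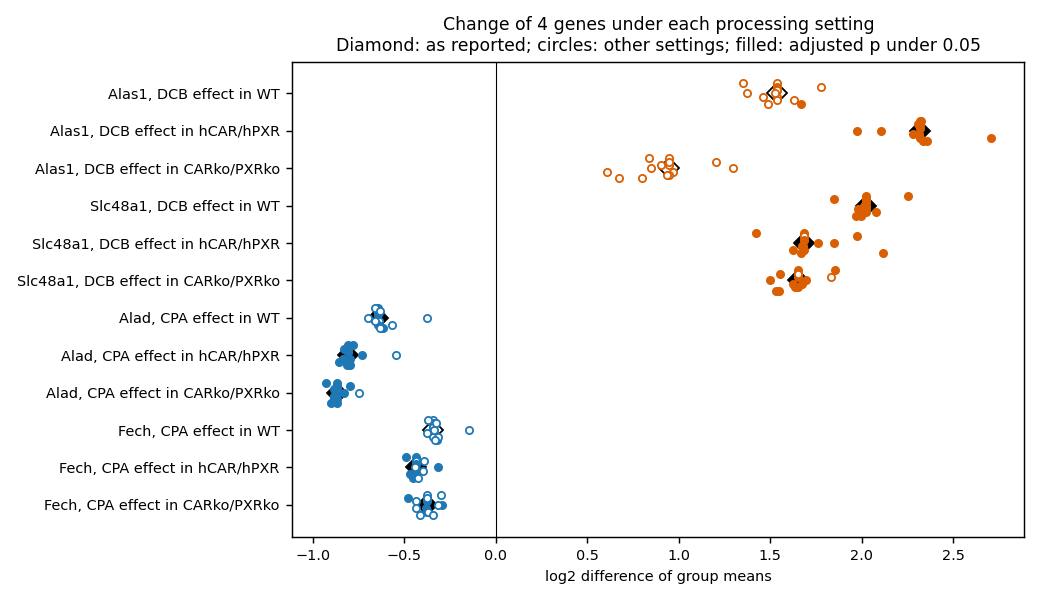
Log2 change of Alas1 and Slc48a1 under DCB and of Alad and Fech under CPA in each genotype, with one point for each of the 15 other processing settings; diamonds mark the values as reported and filled points a called change. Every point of the pairs called as reported stays on its side of 0, and Slc48a1 in WT mice and Alas1 in hCAR/hPXR mice were called in 15 of 15.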

How the data were processed

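Liver RNA on 30 arrays was analysed. Per the submitters' processing notes the authors deposited RMA values, a log2 summary of each probe set after background correction and normalization between arrays; its version and settings: not given in the sources used here. Raw scanner files were not used, and the number of arrays limits the precision.

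The table held 45037 probe sets, of which 34945 had 1 gene in the platform annotation, 932 several and 9160 none. Each gene was read from its single-gene probe set with the highest mean, and tested if that exceeded the array median on at least 3 arrays. A limma 3.58.1 model (R 4.3.3; lmFit, eBayes, two-sided; 20 residual and 3.62 prior degrees of freedom) held a mean for each group and used all 30 arrays. Each of 16 comparisons was adjusted by Benjamini-Hochberg over 12795 genes. Scripts were tested on simulated data. The genes and lists were chosen with earlier results of these data known. The members are always named, with list genes that were called, list genes without a call that bear on a member, and the 5 genes most like Alas1, Hmox1 and Slc48a1; Bach1, Cyp2b10 and Afp were described after their values were seen.

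Alternatives were no filter, a filter at the 75th percentile, averaged probe sets, median centring, robust eBayes with a trend, array weights, a replicate block, only the groups compared, and leaving out arrays. Replicate numbers shared by groups were checked by correlating deviations from group means: all 3 pairs passed 0.1 for corn oil hCAR/hPXR against WT (0.106 to 0.452) and corn oil PXRko against WT (0.107 to 0.447) only. No 2 arrays were duplicates (highest correlation 0.995).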

Additional observations from a re-analysis of the deposited data

How the results depend on the processing

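Of 144 pairs of a gene and a comparison, 9 were called as reported, 16 in some setting and 128 in none, and these 16 kept their sign in all 15 other settings. Counts of the 9 genes called moved as follows. Without a filter they were 0 for CPA in WT and 1 for CPA in CARko/PXRko mice. With probe sets of a gene averaged, CPA gave 0 in WT, 1 in hCAR/hPXR mice and 1 in CARko/PXRko mice, and with arrays centred on their median 0 for CPA in WT mice. With array weights, whose estimate stopped before convergence, they were 2 and 5 for DCB in WT and hCAR/hPXR mice and 4 and 1 for CPA in WT and CARko/PXRko mice. With only the groups compared DCB gave 2 in WT, 1 in hCAR/hPXR mice and 0 in CARko/PXRko mice, while CPA gave 1 in hCAR/hPXR mice and 1 in CARko/PXRko mice. Without the 4 arrays with muscle transcripts the count was 1 for CPA in CARko/PXRko mice, and DCB, with 1 array left there, is not counted. With the replicate block the count was 1 for CPA in CARko/PXRko mice, where Fech was lost, and the block changed no other count of the 9 genes. Leaving out 1 array gave 0 to 0 for CPA in WT mice and 1 to 2 in each of the other two genotypes under CPA. Alad calls under CPA in hCAR/hPXR and CARko/PXRko mice held in 14 of 15 settings, Fech calls in 10 and 5 of 15. In a fit of every single-gene probe set, chosen after seeing the data, Alad under DCB in hCAR/hPXR mice reversed to -0.0866 by its dimmer probe set (adjusted p = 0.924). Counts over all genes moved more: the 978 genes called for DCB in hCAR/hPXR mice ran from 82 with only the groups compared to 2993 with array weights, the 94 for DCB in WT mice from 37 to 969, the 15 for DCB in CARko/PXRko mice from 0 to 168, and those for CPA from 143 (38 to 1798), 566 (257 to 1147) and 702 (136 to 929). The cause of these moves was not tested.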
